A study of Mus musculus with 30 samples.

Results

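The 30 sperm DNA libraries were divided by how much of their sequencing coverage lay on the mitochondrial genome. For each library the coverage of mitochondrial cytosines was taken as a percent of the coverage of all cytosines, and a library was called high at 0.07% or more and low at 0.04% or less. By this rule 11 libraries were high and 9 were low, 20 of 30 in all, and the 10 libraries between the limits entered neither class. The libraries came from mature sperm of the cauda epididymis of single C57BL/6J male mice, and DNA methylation was read by reduced representation bisulfite sequencing (RRBS), which samples CpG-rich fragments of the genome. Of the high libraries, 6 came from mice that drank reverse osmosis water with 0.9 ppm cadmium, prepared from cadmium chloride at an average dose of 0.68 mg per kg of body weight, and 5 from vehicle mice that drank the water alone. Of the low libraries, 4 came from cadmium and 5 from vehicle mice. All mice were 7 weeks old at the start, were sampled 9 weeks into treatment, were housed singly and ate the same diet with 10% of energy from fat. Sperm were rinsed from the epididymides, pelleted and taken up in a sperm wash, and lysis of other cells is not named in the labels' protocol.

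Mature sperm have shed most of their cytoplasm and carry few mitochondrial genomes, whereas most cells of the body carry many. The promoters of many germ cell genes are free of methylation in sperm and methylated in body cells, and imprinted loci with a maternal methylation mark lack it in sperm and carry it on the copy from the mother elsewhere in the body. Some genes of the epididymal lining have the opposite pattern, methylated in sperm and less so in the cells that use them. The comparison therefore asks whether libraries of unequal mitochondrial share also differ in nuclear methylation at such genes. Fewer mitochondrial genomes per sperm and a smaller part of DNA from other cells cannot be told apart by the share.

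Promoter sequences of 4 germ cell genes are shown because their CpGs lay closest to the transcription start and every CpG measured in them was higher in the high libraries. Each sequence is the 250 bases before a RefSeq transcription start (build GRCm38.p6), written 5′ to 3′ on the gene's strand, with the CpGs that were tested in capitals. Sycp1, which forms the transverse filaments that join paired chromosomes in meiosis, lies on the minus strand (chr3:102936101-102936350). Mael, a factor of the piRNA pathway that silences transposons, lies on the minus strand (chr1:166238745-166238994). Hormad1, a protein of the meiotic chromosome axis, lies on the plus strand (chr3:95559427-95559676). Ddx4, the germ cell RNA helicase also called Vasa, lies on the minus strand (chr13:112652311-112652560).
Sycp1: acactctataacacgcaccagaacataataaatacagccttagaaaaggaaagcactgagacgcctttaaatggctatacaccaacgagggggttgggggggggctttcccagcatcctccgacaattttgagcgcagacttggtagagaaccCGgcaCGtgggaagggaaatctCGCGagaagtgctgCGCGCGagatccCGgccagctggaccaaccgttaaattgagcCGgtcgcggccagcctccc
Mael: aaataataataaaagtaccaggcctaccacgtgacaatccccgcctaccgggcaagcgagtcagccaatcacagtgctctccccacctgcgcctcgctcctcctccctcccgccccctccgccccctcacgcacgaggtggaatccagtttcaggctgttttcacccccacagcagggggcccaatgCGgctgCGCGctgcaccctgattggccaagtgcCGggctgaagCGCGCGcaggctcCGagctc
Hormad1: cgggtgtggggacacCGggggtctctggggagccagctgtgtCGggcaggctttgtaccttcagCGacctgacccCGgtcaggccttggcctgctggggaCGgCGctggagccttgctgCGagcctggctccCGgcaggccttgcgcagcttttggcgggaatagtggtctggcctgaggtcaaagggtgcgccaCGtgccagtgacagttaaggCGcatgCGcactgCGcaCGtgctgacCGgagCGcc
Ddx4: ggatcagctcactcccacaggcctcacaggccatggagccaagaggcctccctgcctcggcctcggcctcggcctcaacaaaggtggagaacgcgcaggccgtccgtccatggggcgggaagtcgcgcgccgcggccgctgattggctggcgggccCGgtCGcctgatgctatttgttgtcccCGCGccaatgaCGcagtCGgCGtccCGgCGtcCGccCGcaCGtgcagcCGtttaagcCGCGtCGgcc
In the Sycp1 sequence 9 of 17 CpGs were tested, and their mean methylation was 53.6% in high and 12.3% in low libraries. In that of Mael, 8 of 18 were tested, at 47.0% in high and 6.02% in low libraries. The 15 tested CpGs of Hormad1 averaged 53.6% and 10.9%, and the 16 of Ddx4 averaged 36.9% and 11.99%, in the same order. Means of single CpGs ranged from 38.4% to 69.7% in high and from 2.62% to 15.2% in low libraries in Sycp1, and from 26.3% to 60.6% and 4.32% to 8.90% in Mael. In Hormad1 they ranged from 45.6% to 66.1% and from 1.71% to 21.8%, and in Ddx4 from 19.3% to 51.5% and from 7.39% to 18.4%. That every CpG was higher follows from the choice of the sequences. Each sequence holds at least 2 copies of CCGG, the site that the usual RRBS enzyme cuts, which reads the same on both strands. Of 32851 RefSeq windows from 250 bases before to 50 bases after a start, 52.8% hold it, so the motif alone is no mark of these genes. Those windows are 50 bases longer than the sequences shown.

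Shares of mitochondrial coverage ran from 0.0127% to 0.0389% in low libraries (median 0.0279%) and from 0.0704% to 0.119% in high libraries (median 0.0906%). The classes were chosen by these values, which are given as a description. Just inside the limits lay vehicle library 2 at 0.0389% and cadmium library 7 at 0.0704%, and just outside lay vehicle library 7 at 0.0400427% and cadmium library 9 at 0.0684%. The sums rest on 19 to 32 mitochondrial cytosines and on 7700 to 94296 units of coverage per library of the classes. The number in a library's title divided with the class, since 8 of 9 low libraries were numbered 1 to 7 and 8 of 11 high libraries 8 to 15. The labels do not say what the numbers stand for, so class and any grouping that follows the numbers cannot be fully told apart, and the calls that were lost with a term for them are named beside the results.

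**Figure D1:**
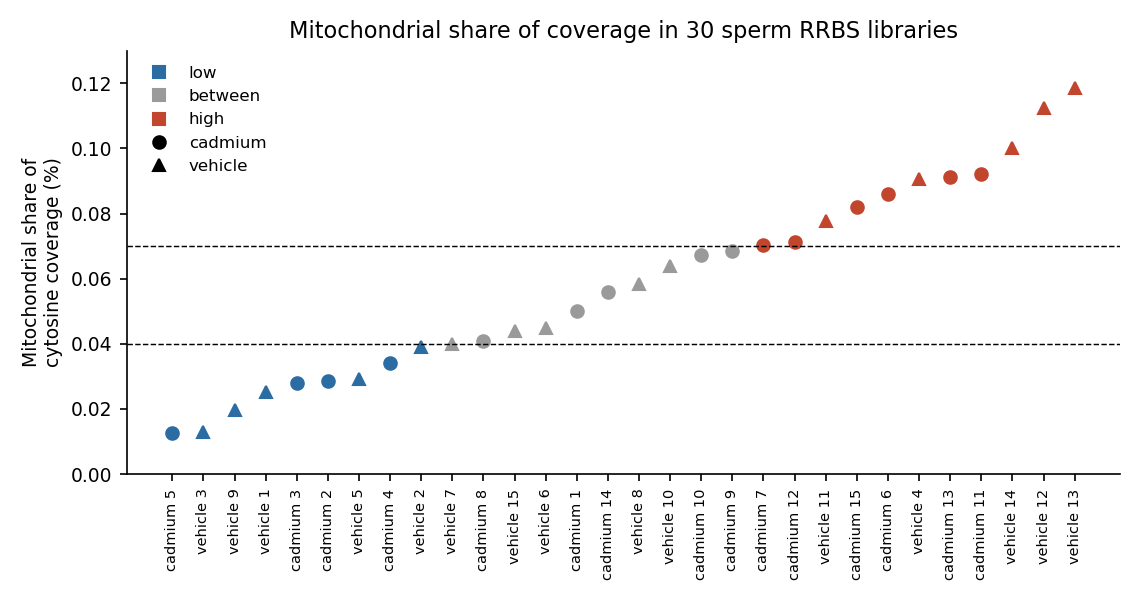
Mitochondrial share of cytosine coverage (y axis, percent) in each of the 30 libraries, ordered by the share. Circles are cadmium and triangles vehicle libraries, colours mark the 9 low, 10 between and 11 high libraries, and the dashed lines are the limits of 0.04% and 0.07%.

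Depth and bisulfite controls did not separate the classes. Total coverage was 58571036 to 94090975 in high and 57856937 to 86374881 in low libraries (adjusted p = 0.780, exact permutation of class within treatment, two-sided, over 10 library measures). The unmethylated control sequence read 0.365% ± 0.163 (SD, n = 11) in high and 0.355% ± 0.115 (SD, n = 9) in low libraries, and the methylated one 98.3% in both. The share of coverage on the Y chromosome was 0.104% in high and 0.107% in low libraries. Only the share taken by the most covered cytosine passed, at 1.57% ± 0.152 in high and 3.19% ± 2.77 in low libraries (adjusted p = 0.00283, exact permutation), with cadmium library 4 at 10.2%. Its part in the results below was not tested, but gene end calls without cadmium library 4 are among the fits given at the end. A gene end is the window of 1000 bp either side of an end of a RefSeq gene, at the end with more tested CpGs, and a test compares methylated with unmethylated reads in a logistic model with treatment as a covariate. A gene end was called at a Benjamini-Hochberg adjusted p under 0.05 over all 18235 tested, and differences are in percentage points of methylation between unweighted means of libraries. Each library was taken as 1 mouse.

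Most tested germ cell genes were more methylated in the high libraries. Of 43 listed, 31 were tested and 23 were called, 22 higher and 1 lower, where 12.6% of all gene ends were called, 7.75% higher and 4.86% lower. The median difference was 23.7 points over the 31, against 0.0343 over all gene ends. Calls depended on level, and the list's median was 25.8% in the libraries between the classes. Of all gene ends at 20 to 80% in those libraries, 53.9% of 1813 were called, 542 higher and 435 lower. Over those 1813 the median difference was 4.55 points. The list mean, over 26 gene ends measured in every library, ran from 13.1% to 23.7% in the low libraries with a median of 18.2%. It ran from 29.6% to 52.4% in the high libraries, with a median of 40.4%, so the classes did not overlap. The highest were vehicle library 13, cadmium library 13 and vehicle library 4, and the lowest was vehicle library 3. The list was drawn up with results of these libraries known, and its direction is therefore not independent evidence.

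Dazl, which encodes an RNA-binding protein that controls translation in germ cells, was read over 61 CpGs on chromosome 17 from 50292620 to 50294620. It stood at 2.94% to 11.4% in the low libraries (median 8.28%) and at 13.1% to 37.3% in the high libraries (median 24.3%). All 11 high libraries lay above every low library, with means of 25.2% ± 6.98 (SD, n = 11) and 6.97% ± 3.28 (SD, n = 9) (adjusted p = 0.000363, logistic model). Ddx4, over 25 CpGs on chromosome 13 from 112651633 to 112653633, ran from 3.40% to 26.0% in low and from 28.5% to 56.5% in high libraries, with medians of 9.04% and 33.1%. Here too the classes did not overlap, though the lowest high library and the highest low library, cadmium library 4, stood close (difference of means 25.04 points, adjusted p = 0.000525).

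Sycp1, over 27 CpGs on chromosome 3 from 102935100 to 102937100, ran from 8.08% to 21.2% in low and from 24.2% to 69.1% in high libraries, with medians of 12.5% and 50.3%. Its means were 50.4% ± 11.9 and 13.9% ± 4.38, apart by 36.5 points (adjusted p = 0.000113, logistic model), and every high library lay above every low one. Sycp3, which builds the lateral elements of the same meiotic structure, overlapped between the classes, with 8 of 11 high libraries above every low one. It ran from 0% to 30.3% in low and from 9.87% to 69.8% in high libraries, with medians of 12.8% and 35.8% (difference 23.7 points, adjusted p = 0.0199). Fitted with a term for libraries numbered 8 to 15, Sycp3 gave an adjusted p of 0.125 and was not called.

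The widest differences in the list were those of Mael (10.3% in low, 52.1% in high libraries), Tex14, which holds the bridges between germ cells open (17.5% and 57.4%), and Hormad1 (14.0% and 53.2%). Of other piRNA genes in the list, Asz1 (14.4% and 51.4%), Tdrd9 (16.2% and 51.6%) and Tdrd1 (26.2% and 46.0%) were called, while Mov10l1 stood at 15.3% and 36.3% without passing (adjusted p = 0.118). Called members at low level moved by less, such as Tex15, a meiotic gene, at 1.26% and 6.22%. Stag3, a cohesin subunit of meiosis, was the member called lower, at 67.8% in low and 35.5% in high libraries, and its window held no RefSeq transcription start. The 8 members not called were Smc1b, Dmc1, Syce1, Syce2, Brdt, Tuba3a, Mov10l1 and Dppa3.

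**Figure D2:**
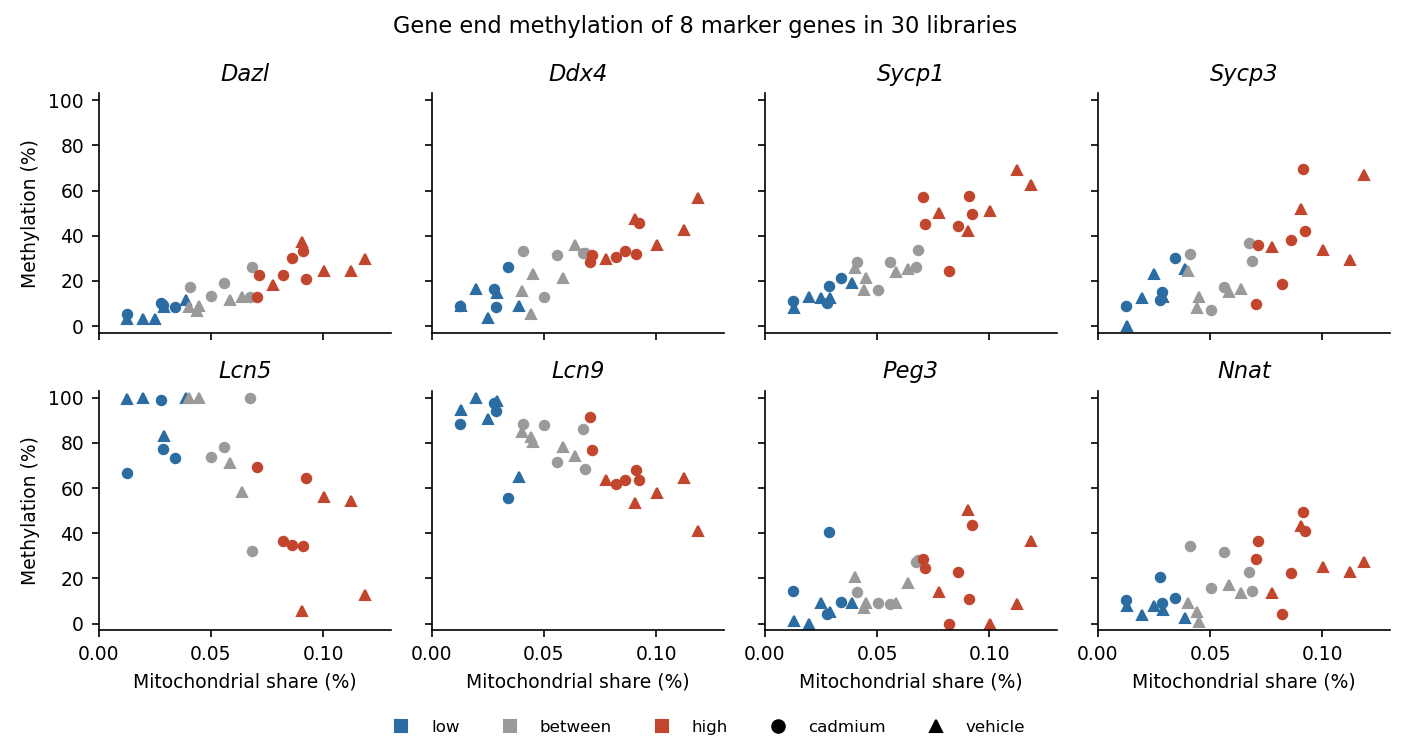
Methylation (y axis, percent) of 8 marker gene ends against the mitochondrial share (x axis, percent of coverage) in the 30 libraries. Circles are cadmium and triangles vehicle libraries, and colours mark low, between and high libraries. In Dazl, Ddx4 and Sycp1 all 11 high libraries lie above the 9 low ones, in Lcn5 8 of 9 measured high libraries lie below every low one, and in Peg3 the classes overlap.

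Of imprinted loci with maternal methylation, 28 were listed, 22 tested over 20 distinct windows (Peg3 shares its window with Usp29, and Peg10 with Sgce) and 10 called, or 45.5%, all 10 higher in the high libraries. Over all gene ends 7.75% were called higher. The median difference was 11.8 points. The 12 not called included Airn (26.6 points, adjusted p = 0.0791), Mest (18.7 points, adjusted p = 0.129), Grb10 (0.163 points) and Inpp5f (-0.568 points). These were read at gene ends, which need not hold the imprint. Over the 19 measured in every library the mean ran from 4.96% to 15.1% in low and from 17.8% to 32.5% in high libraries. Magel2, a paternally expressed gene of the Prader-Willi region, ran from 4.97% to 14.2% in low and from 17.0% to 45.0% in high libraries without overlap (9.68% ± 3.12 and 27.1% ± 7.97, adjusted p = 0.000363, logistic model). Nnat, expressed in the developing brain, ran from 2.35% to 20.5% in low and from 4.25% to 49.3% in high libraries, and 9 of 11 high libraries lay above every low one (8.80% ± 5.29 and 28.5% ± 13.3, adjusted p = 0.00396). Zrsr1 was not called with windows of 500 bp (adjusted p = 0.0530). Others called were Zrsr1, Mcts2, Plagl1, Mkrn3, Peg13, Snurf, Nap1l5 and Gnas. The windows were placed at gene ends. Whether each holds the maternally methylated stretch of its locus, that of Gnas included, was not determined.

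Peg3, a zinc finger gene that marks this kind of imprint, was not called. It ran from 0% to 40.4% in low and from 0% to 50.5% in high libraries, with medians of 9.19% and 22.9%, over 5 CpGs, and 2 of 11 high libraries lay above every low one. The means were 21.9% ± 16.9 and 10.4% ± 12.1 (adjusted p = 0.0610). Peg3 passed without cadmium library 2, the low library at 40.4%, where the difference was 15.2 points (adjusted p = 0.0401). It also passed without cadmium library 15, vehicle library 12 or vehicle library 14 (adjusted p = 0.0282, 0.0485 and 0.0431). In the logistic model it passed with the log2 share in all 30 libraries (adjusted p = 0.00994). The same held with the term for libraries numbered 8 to 15 (adjusted p = 0.0265) and without a treatment term (adjusted p = 0.0476).

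Among loci listed for a paternal imprint, 1 of 5 tested was called, Zdbf2. The 5 windows averaged 0.422% to 23.1% in the low libraries, so none was highly methylated in these sperm. Zdbf2, listed for its paternal mark, was measured at a start far upstream, on chromosome 1 from 63199358 to 63201358. Whether this window holds that mark was not determined, so the call is not read as one at a paternal imprint. There Zdbf2 ran from 0% to 39.0% in low and from 16.3% to 98.6% in high libraries (17.8% ± 14.8 and 68.5% ± 24.1, adjusted p = 0.00153). At its downstream start the difference was 0.541 points (adjusted p = 0.296). Meg3 stood at 21.1% in low and 34.2% in high libraries (adjusted p = 0.0547) and the H19 gene end at 23.1% and 31.9% (adjusted p = 0.413). Meg3 passed without cadmium library 12, vehicle library 11 or vehicle library 12 (adjusted p = 0.0477, 0.0249 and 0.0341). In the logistic model it also passed with the term for libraries numbered 8 to 15 (adjusted p = 0.0454) and without a treatment term (adjusted p = 0.04645). The H19 control region, methylated in sperm, lies upstream of the gene on chromosome 7 from 142580146 to 142582146. Over 4 CpGs it stood at 86.1% to 99.1% in low and at 60.0% to 96.2% in high libraries, with means of 92.5% and 81.0%, given as a description with no test.

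Of genes of the epididymal epithelium, 40 were listed, 18 tested and 4 called, or 22.2%, all lower in the high libraries, where 4.86% of all gene ends were called lower. All 4 are lipocalins, a family of secreted carriers of small molecules. The list's median difference was -1.54 points, and its mean over 14 gene ends ran from 25.3% to 30.8% in low and from 21.4% to 26.9% in high libraries. Lcn5, a retinoid carrier secreted in the epididymis, was read over 4 CpGs on chromosome 2 from 25661230 to 25663230, a window without a listed start. It ran from 66.7% to 100% in 8 low and from 5.74% to 69.2% in 9 high libraries, with medians of 90.8% and 36.4%, and 8 of the 9 lay below every low library (40.9% ± 22.1 and 87.2% ± 13.9, adjusted p = 0.00397, logistic model). Lcn9, read on the same chromosome from 25822088 to 25824088, overlapped more, with 2 of 11 high libraries below every low one. It ran from 55.8% to 99.7% in low and from 41.0% to 91.3% in high libraries, with medians of 94.2% and 63.7% (difference -23.1 points, adjusted p = 0.0103). Lcn2 stood at 85.0% in low and 48.5% in high libraries and Lcn10 at 89.0% and 67.6%. The window of Lcn10, from 25681726 to 25683726 on chromosome 2, lies between those of Lcn5 and Lcn9. Lcn10 was not called with the term for libraries numbered 8 to 15 (adjusted p = 0.0886). Epithelial genes outside the lipocalins, among them Epcam (90.3% and 88.7%), Krt18 (3.47% and 1.93%) and Cdh1 (3.42% and 4.23%), did not pass.

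Of the lists that follow, Hox genes and genes of smooth muscle, fibroblasts and fat had calls only higher. The others had calls in both directions or none. Over all gene ends 12.6% were called, 7.75% higher and 4.86% lower. For some lists limma called fewer: 4 of smooth muscle, fibroblasts and fat, 1 of endothelium and blood and 2 of testis somatic cells. It called 8 of Hox genes and 1 of mitochondrial DNA maintenance. Of the lists above, limma called 20 of 31 germ cell genes, 9 of 22 maternally methylated loci and 4 of 18 epididymal genes. For those the logistic model called 23, 10 and 4. The logistic model called 0 of 8 tested leukocyte genes and limma also 0, with 2 at an unadjusted p under 0.05 in the logistic model. Of the 8, 7 averaged 25.4% to 29.7% in low and 23.3% to 30.8% in high libraries. Leukocyte genes not tested included Ptprc, Cd68 and Csf1r. Genes of smooth muscle, fibroblasts and fat had 5 of 17 called (29.4%), all higher, with a median difference of 0.0839 points, among them Des, the muscle intermediate filament gene (4.20% in low, 10.97% in high libraries), and Lep, the leptin gene (11.96% and 33.1%). Endothelial and blood genes had 2 of 10 called (20%), Robo4, a guidance receptor of vessels, lower (94.8% and 80.5%), and Flt1, a VEGF receptor, higher from a level near 1% (0.671% and 1.25%). Robo4 differed by -5.78 points at cytosines with 20 reads or more (adjusted p = 0.255) and was not called with the term for libraries numbered 8 to 15 (adjusted p = 0.0862). Testis somatic genes had 4 of 14 called (28.6%, where 12.6% of all gene ends were): Gata4 (84.3% and 64.1%) and Insl3 (39.0% and 29.6%) were lower, Lhcgr (4.47% and 10.96%) and Amh (0.382% and 2.70%) higher. Flt1 was not called without vehicle library 4, 5 or 11 (adjusted p = 0.0806, 0.0586 and 0.0524), and Amh not without any of cadmium libraries 2 and 13 and vehicle libraries 1 to 5 and 13 (adjusted p from 0.0524 to 0.0842). In limma neither Flt1 nor Amh was called (adjusted p = 0.131 and 0.124), and with the term for libraries numbered 8 to 15 Amh was not (adjusted p = 0.0586). At 20 reads or more Lhcgr was not called (5.63 points, adjusted p = 0.0603). Gata4 is a transcription factor of gonadal cells, Insl3 and Lhcgr are genes of Leydig cells and Amh one of Sertoli cells.

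Genes used late in sperm formation had 6 of 16 called (37.5%), 4 higher and 2 lower. Of all gene ends 12.6% were called, 7.75% higher and 4.86% lower. Ccin, for a protein of the sperm head, stood at 14.5% in low and 53.3% in high libraries, in a window without a listed start. Tnp1, which replaces histones before protamines do, stood at 12.9% and 39.8%. Prm1, a protamine gene, went the other way at 77.2% and 32.1% over 3 CpGs (adjusted p = 0.0203). Among Hox genes, which pattern the body axis, 12 of 38 were called (31.6%, where 7.75% of all gene ends were called higher), all higher. Hoxc6 stood at 6.33% and 25.9%, Hoxa2 at 6.27% and 21.9% and Hoxb1 at 5.61% and 18.4%, low libraries first. Hoxb1 was not called with the term for libraries numbered 8 to 15 (adjusted p = 0.0811). The list's median difference was 1.07 points, and most of the other Hox gene ends stayed under 5% in both classes. The logistic model called 0 of 23 tested housekeeping genes, against 12.6% of all gene ends, and limma also 0. The median level of these genes was 0.572% in the libraries between the classes. Of all gene ends under 20% in those libraries 6.92% were called. Of the 23, 1 had an unadjusted p under 0.05 in the logistic model, and the median difference was -0.0115 points.

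Nuclear genes that maintain mitochondrial DNA had 3 of 25 called, or 12%, close to the 12.6% over all gene ends. Polrmt, the mitochondrial RNA polymerase gene, stood at 14.8% in low and 34.7% in high libraries in a window without a listed start, and at its 5′ end the difference was 0.423 points (adjusted p = 0.0938). Opa1, for inner membrane fusion, stood at 0.408% and 0%. It was not called with a split at 0.05% (adjusted p = 0.0769), with the log2 share (0.128), with the term for libraries numbered 8 to 15 (0.0693) or in limma (0.352). Dguok stood at 0% and 0.997%, with 1 of 8 measured high libraries above 0%, vehicle library 12, and without it no difference remained. Tfam, which packages mitochondrial DNA, stood at 0.509% and 0.422%, and Polg, whose product copies it, at 0% and 0.694%, and neither passed.

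**Figure D3:**
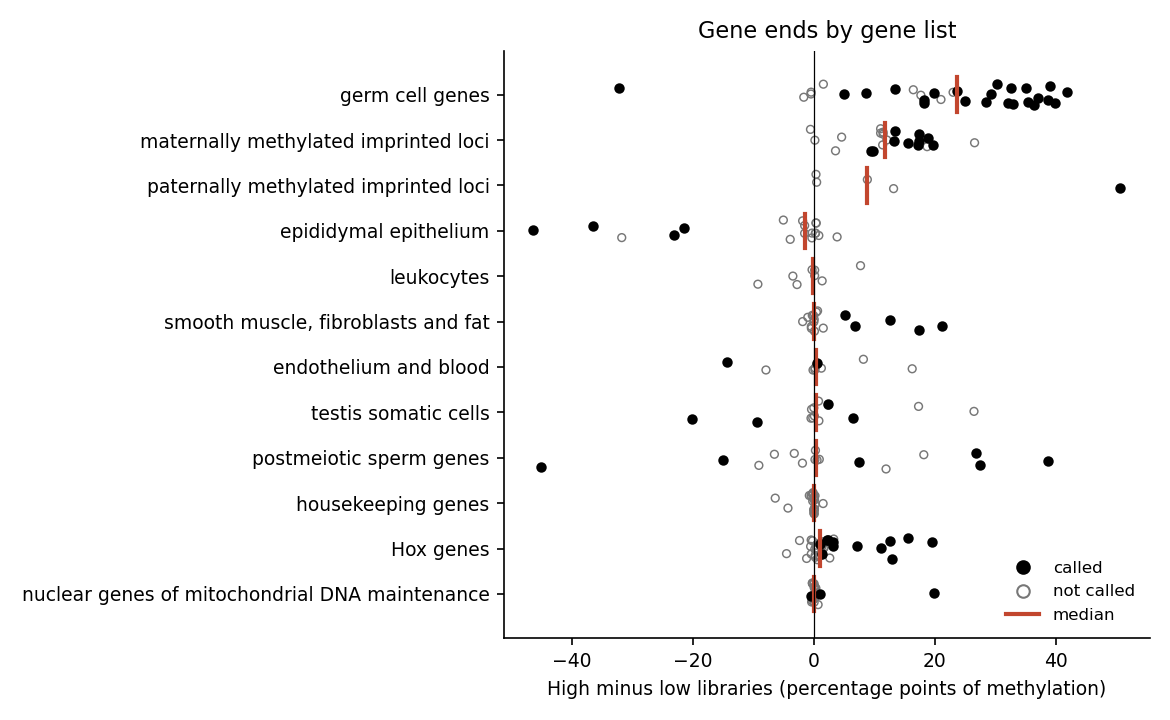
Difference in methylation (x axis, high minus low libraries, percentage points) of each tested member of 12 gene lists. Filled points were called at an adjusted p under 0.05, open points were not, and the vertical bar is the list's median. The germ cell list has 22 filled points above 0 and 1 below, the epididymal list 4 below 0, and the leukocyte and housekeeping lists none.

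Across all genes, 2300 of 18235 gene ends were called, 1414 higher and 886 lower in the high libraries. Called gene ends that were higher rose from a median of 8.79% in low to 25.1% in high libraries, and those that were lower fell from 85.7% to 53.9%. The classes did not overlap at 82 gene ends with the high libraries above (0.45% of those tested) and at 78 with them below (0.428%). Among lncRNA genes 21.3% were called and among protein coding genes 9.78%. Where the window held a RefSeq start, 10.1% of 11907 were called, and where it held none, 21.4% of 2455. Gene ends at 20 to 80% in the libraries between the classes were called most often, 53.9% of 1813, against 6.92% of those under 20%. Differences of 25 points or more were found at 735 called gene ends.

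The count depended on libraries and on the numbers in the titles. It was 1811 to 2421 when each library was left out, 1441 with a term for libraries numbered 8 to 15 and 326 among the libraries numbered 1 to 7 alone, 3 high and 8 low. Of 49 called gene ends among the 59 chosen to be named, 26 lost their call in those 11 libraries, Dazl (19.5 points, adjusted p = 0.0759) and Ddx4 (27.5 points, adjusted p = 0.0522) among them.

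**Figure D4:**
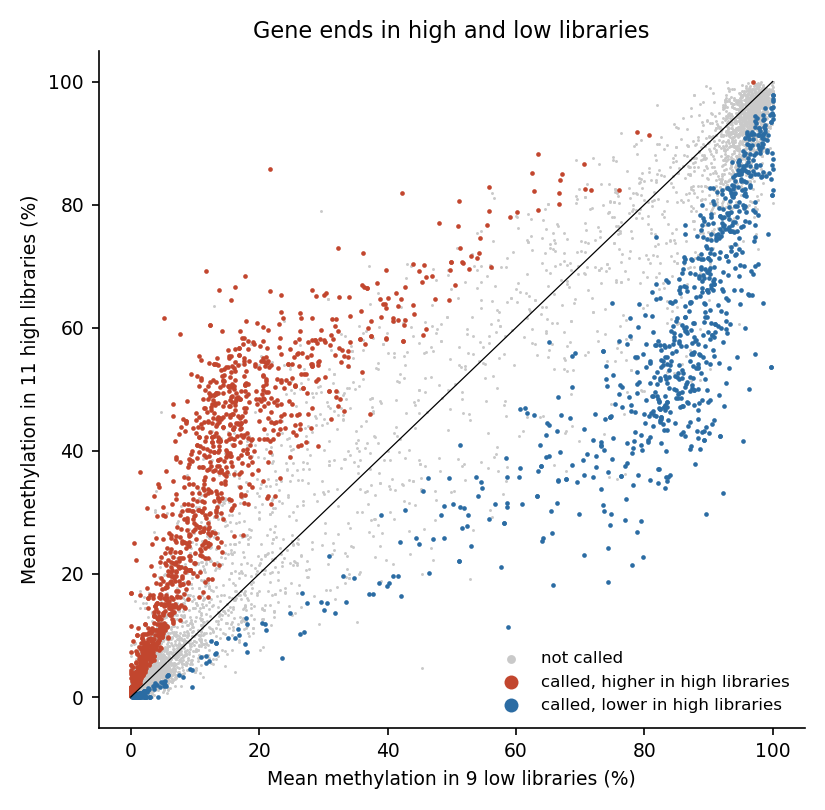
Mean methylation of 18235 gene ends in the 9 low (x axis, percent) and 11 high libraries (y axis, percent), with the line of equality. Red points are the 1414 called higher, blue points the 886 called lower and grey points those not called. Called points leave the lower left corner upward and the upper right corner downward.

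Among gene ends called higher, that of Rhov was one of those with the smallest p. Rhov ran from 0% to 21.4% in low and from 49.6% to 76.0% in high libraries (5.24% ± 6.91 and 61.6% ± 9.04, adjusted p = 4.27e-05, logistic model). Its window lies on chromosome 2 from 119277008 to 119279008, away from the listed start, where 8 CpGs averaged 2.86% in high and 2.63% in low libraries. D1Pas1, a testis DEAD-box helicase gene, ran from 6.22% to 37.7% in low and from 48.0% to 85.3% in high libraries. The lncRNA gene Gm46174 stood at 7.73% and 59.0%, and Gm46603 at 11.02% and 44.3%, low libraries first. Also among the 10 with the smallest p were Sycp1, 4933412E24Rik, Gm35510, 4930415O20Rik and Sema6c, a semaphorin gene (5.34% and 21.8%, but -0.106 points at its 5′ end). In these 9 every high library lay above every low one, as at 0.45% of all gene ends tested. They were picked by the p of the same comparison, so the lack of overlap follows in part from the choice. Dennd4a had the smallest p but rested on few libraries: it was 0% in all 7 low libraries measured and above 0% in 4 of 10 high ones, with vehicle library 14 at 100%, and without that library it was not called (adjusted p = 0.164).

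Of the 10 gene ends called lower with the smallest p, 8 had every high library below every low one, as had 0.428% of all gene ends tested. Here too the lack of overlap follows in part from the choice by p. Cc2d2a, a gene of the ciliary transition zone, ran from 71.9% to 97.9% in low and from 11.1% to 50.2% in high libraries (81.0% ± 8.28 and 35.3% ± 13.3, adjusted p = 0.000238, logistic model). Gm34469 stood at 88.4% and 42.1%, Gm33430 at 90.9% and 45.0%, Gm51995 at 70.6% and 36.1% and Gm29931 at 81.8% and 45.6%, low libraries first. Gm46949 stayed the highest, at 96.5% and 83.1%. Gm17057, Gm17546 and Gm41745 stood at 82.7%, 73.8% and 88.3% in low libraries and at 45.2%, 40.1% and 43.3% in high ones. Ubxn10, a gene of cilia, stood at 87.6% and 51.8% in a window without a listed start, and at its 5′ end it was 8.68 points higher in the high libraries (adjusted p = 0.0353).

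The difference in mean methylation over the genome depended on how it was averaged. Over 411688 autosomal CpGs with 10 or more reads in all 30 libraries, it was 27.9% ± 0.240 (SD, n = 11) in high and 28.0% ± 0.125 (SD, n = 9) in low libraries, and the treatment-adjusted difference was -0.101 points with a 95% interval from -0.285 to 0.0841 (p = 0.275, exact permutation within treatment, two-sided). With 5 reads or more it was -0.233 points (p = 0.0136, exact permutation), and as methylated reads over all reads it was -1.81 points (p = 0.00104, exact permutation). By context, means over CpGs differed between the classes. CpGs at gene ends averaged 5.01% ± 0.180 and 4.66% ± 0.1002 (adjusted p = 0.000340, exact permutation). Those in gene bodies averaged 45.7% ± 0.562 and 47.1% ± 0.161, without overlap (adjusted p = 5.67e-05, exact permutation, from the smallest p that the 52920 arrangements can give). Intergenic CpGs averaged 63.7% ± 0.797 and 62.4% ± 0.458 (adjusted p = 0.000680, exact permutation). High libraries are given before low ones in these sentences. As a share of all reads only gene bodies passed (-3.41 points, adjusted p = 5.67e-05, exact permutation), while gene ends (-0.0207 points, adjusted p = 0.869) and intergenic CpGs (0.611 points, adjusted p = 0.216) did not.

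By level, the means of low and of high CpGs lay closer together in the high libraries. CpGs under 20% in the libraries between the classes stood at 2.08% ± 0.333 in high and 1.34% ± 0.174 in low libraries (adjusted p = 0.000113, exact permutation). CpGs over 80% stood at 91.7% ± 1.34 and 95.02% ± 0.443 without overlap (adjusted p = 5.67e-05, exact permutation). CpGs of 20 to 80% stood at 54.0% ± 1.59 and 52.7% ± 0.854, short of the threshold (adjusted p = 0.0522, exact permutation). Single CpGs did not all follow these means: of called CpGs under 20%, 15123 were higher in the high libraries, with a median difference of 5.60 points, and 16587 lower, with a median of -2.33 points. Of called CpGs at gene ends, 10398 were higher (median 5.17 points) and 15644 lower (median -2.88 points).

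At single CpGs, 96072 of 1078154 were called (8.91%), 37303 higher (3.46%) and 58769 lower (5.45%) in the high libraries. Of the called CpGs, 26042 lay at gene ends, 46459 in gene bodies and 23571 between genes. CpGs of 20 to 80% in the libraries between the classes were called most often, at 24.9%. In 51785 of the called CpGs neither class was at exactly 0% or 100% in every library. In each direction the CpG with the smallest p belonged to the rest, where a class has no spread of its own: a CpG inside Usp3, a deubiquitinase gene, on chromosome 9 from 66518022 to 66518023 was 100% in 8 low libraries and 82.0% ± 33.6 in 9 high ones. Likewise a CpG inside Gata4 on chromosome 14 from 63241774 to 63241775 was 0% in 9 low and 28.0% ± 36.9 in 9 high libraries. limma on percent methylation, which shares the spread over features, called 24692 CpGs.

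The 10 libraries between the limits, which no call had used, mostly took levels between the classes at called gene ends. The mean of these libraries lay between the low and the high mean at 1298 of the 1414 gene ends called higher (91.8%) and at 808 of the 886 called lower (91.2%). Of the 15935 gene ends not called, it did so at 6075 (38.1%). Calls pick gene ends with a wide gap between the classes, into which the mean of other libraries falls easily. Gene ends not called had hardly any gap, with medians of 0.737% in low and 0.753% in high libraries. These shares are therefore a description and no test of the calls. The median level of these libraries was 14.5% at gene ends called higher and 71.9% at those called lower. Their means over CpGs at gene ends (4.71%) and in gene bodies (46.1%) lay between those of the classes. Their means over all CpGs (27.7%) and over intergenic CpGs (62.2%) lay below those of both classes. Single libraries did not follow the share in strict order. Over 1203 gene ends called higher and measured in all 30 libraries, vehicle library 15, at a share of 0.0440%, averaged 9.59%, within the range of the low libraries of 7.92% to 15.03%. Cadmium library 10, at 0.0673%, averaged 21.0%, within that of the high libraries of 19.2% to 34.2%. Sycp1 stood at 15.8% to 33.5% in these 10 libraries and Dazl at 6.63% to 26.0%.

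Each treatment was also fitted alone, since the 2 share no library. Within vehicle mice, 5 high against 5 low, 748 of 17509 gene ends were called (4.27%), 483 higher and 265 lower. Within cadmium mice, 6 high against 4 low, 0 were called (0.0%), while 2267 (12.9%) had an unadjusted p under 0.05 in the logistic model. Of the 748, 689 lay the same way in cadmium mice (92.1%, against 60.1% of all gene ends), and 376 (50.3%) did so with an unadjusted p under 0.05. Their median size was 28.5 points in vehicle and 16.2 points in cadmium mice, and the first of these is raised by the choice of gene ends in vehicle mice. Sycp1 differed by 42.1 points in vehicle and 31.4 points in cadmium mice, Dazl by 20.9 and 15.5 points, and Lcn5 by -63.4 and -31.1 points. The interaction term of the logistic model, which tests whether the class difference differed between treatments, called 0 of 18235 gene ends, with 1288 (7.06%) at an unadjusted p under 0.05 and a lowest adjusted p of 0.0863. The treatment term of the shared fit called 8 gene ends beside the 2300 of class, and 10574 CpGs beside the 96072.

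**Figure D5:**
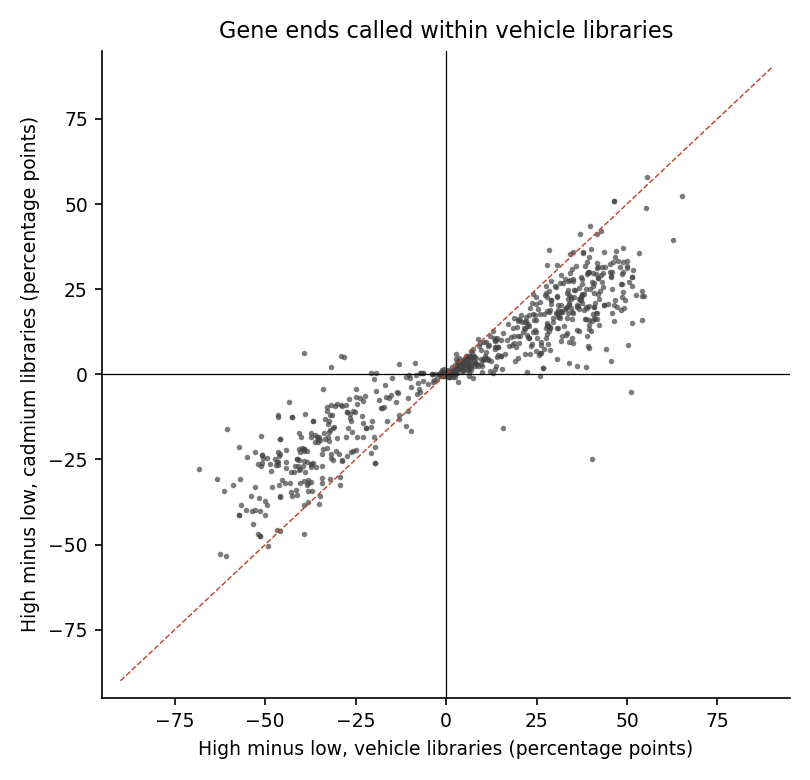
Differences in methylation between high and low libraries (percentage points) at the 748 gene ends called within vehicle mice, in vehicle (x axis) and in cadmium libraries (y axis). The dashed line marks equal differences. Of the points, 689 lie in the quadrants of equal sign.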

How the data were processed

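RRBS was measured in sperm DNA of 15 cadmium and 15 vehicle mice. The deposited tables give, per cytosine of a CpG and strand, a count of covering reads and the fraction methylated. Tools named in the submitters' processing notes are methylKit 1.12.0, Bismark 0.22.3 and Trim Galore 0.5.0, on builds mm10 and GRCm38. Which tool did which step, the sources used here do not give. Methylated reads are the deposited count times the deposited fraction, rounded, and the product missed a whole number by over 0.1 at 1 cytosine of a library at most. Depth was 53591172 to 94090975 units of coverage per library. Since PCR copies and neighbouring CpGs share molecules, coverage overstates precision.

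Strands of a CpG were summed, and CpGs above the 99.9th percentile of a library's coverage were set to missing there. A CpG was tested with 10 or more reads in at least 8 of the 11 high and 6 of the 9 low libraries, and a gene end needed 3 or more such CpGs. Genes were protein coding, lncRNA and antisense RNA genes of RefSeq GRCm38.p6 on autosomes, 33081 in all. The quasi-binomial logistic model used class and treatment terms, an F test and a Pearson dispersion held at 1 or above (numpy 2.4.6, scipy 1.17.1, Python 3.11.15), and was tested on simulated data. Single values used exact permutation of class within treatment. limma 3.58.1 in R 4.3.3 was an alternative. Of the gene ends tested, 14362 of 18235 belong to genes with a listed start. No 2 libraries looked like the same one deposited again (lowest mean chi-square per CpG 9.79 over 435 pairs).

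The members, markers and gene lists were chosen with earlier results of these data known. Gene ends named are the 10 called higher and the 10 called lower with the smallest p, the 8 markers Dazl, Ddx4, Sycp1, Sycp3, Lcn5, Lcn9, Peg3 and Nnat, and, per list, 3 members ranked by p, as far as space allowed. The other list members given were chosen after their values were seen. Named CpGs come from the 5 of smallest p in each direction. Alternatives varied coverage minimum, class limits, covariates, model, window and minimum difference, and left out each library.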

Additional observations from a re-analysis of the deposited data

Results flagged for a closer look

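Dixon's criterion was applied to 42 groups, each the 9 low or the 10 between libraries, less any without a value. Lcn5, for one, had 8 low libraries. In these groups 3 values stood far from the others of their group, where chance gives about 1 in 20. Among the low libraries, the most covered cytosine took 10.2% of the coverage of cadmium library 4, and the next highest share was 4.26%. Peg3 was at 40.4% in cadmium library 2, with the next highest low library at 14.6%. Nnat was at 20.5% in cadmium library 3, with the next at 11.3%. The high libraries, 11 in number, were too many for this criterion.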

How the results depend on the processing

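Called gene ends numbered 1487 with a difference of 10 points or more, 735 with 25 points, 1338 with windows at the 5′ end (fewer genes tested), 1310 with windows of 500 bp, 1441 with a term for libraries numbered 8 to 15 and 326 in the libraries numbered 1 to 7 alone. They ranged from 1811 to 2421 when each library was left out, and limma called 1862, of which 1800 were among the 2300. Called CpGs numbered 56232 with 10 points or more, 40644 with 25 points, 51785 where neither class was fixed at 0% or 100%, 47344 without a treatment term, 147002 with the log2 share in all 30 libraries, 45110 in the libraries numbered 1 to 7 and 24692 in limma. The genome mean differed by -0.233 points with 5 reads or more (p = 0.0136, exact permutation), 0.0954 with 20 reads, -1.81 as a share of all reads (p = 0.00104, exact permutation) and -0.132 to -0.0529 with libraries left out. As a share of all reads, the difference was -0.0207 points at gene ends (adjusted p = 0.869) and 0.611 between genes (adjusted p = 0.216, exact permutation). CpGs of 20 to 80% passed with 20 reads (2.45 points), with limits of 0.08% and 0.03% (1.73) and without a treatment term (1.30). With windows at the 5′ end Sema6c differed by -0.106, Ubxn10 by 8.68 and Runx3 by 0.630 points. Of the 59 named gene ends 49 were called, of which 26 lost their call in the libraries numbered 1 to 7, 8 with the term for numbers and 5 in limma. The cause of each change was not tested. Settings on title numbers and on classes fixed at 0% or 100% were chosen after seeing the data, and contexts by level were not run for the split at 0.05%.

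The numbers in the titles were not taken to pair mice. With the mean of each treatment taken out, same-numbered libraries correlated by -0.351 to 0.792 over gene ends, above 0.1 in 7 of 15 pairs. Own numbers gave the best match for 2 of 15 cadmium libraries. Class was not taken out, so these correlations also carry the difference between classes. With a replicate block, where the class term rests on number 4 alone, limma called 312 gene ends (249 higher, 63 lower) and 80045 CpGs (58119 higher, 21926 lower), and the genome mean differed by 0.167 points. All 49 calls of named gene ends were lost, and Lcn9, Lcn10 and Dguok changed sign, to 7.77, 1.93 and -2.66 points.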
